A study of Mus musculus with 4 samples.

Results

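Thymic Ad I nuclei were the nuclei that the authors labelled Ad Ia or Ad Ib in the single-nucleus RNA library of the thymus. They were taken from the deposited table of labels, which named 35 Ad Ia and 49 Ad Ib nuclei, and were matched by barcode to the raw matrix. The 84 nuclei were 0.372% of the 22600 barcodes in that library. They were set against the thymic nuclei labelled Ad IIa (231), Ad IIb (16) and Ad IIc (34) and against the 22235 thymic barcodes without a label.

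White fat cells store triglyceride in a lipid droplet, coated by perilipins, and release it as fatty acids when adrenergic signals raise cyclic AMP. Insulin opposes that release and drives glucose uptake and fat synthesis, and growth hormone acts on fat cells through its receptor. Brown and beige fat cells burn fatty acids to make heat with the help of the nuclear receptor PPAR alpha, PGC-1 coactivators and the uncoupling protein Ucp1. The thymus, where T cells mature, accumulates fat cells as it shrinks with age.

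The thymic RNA library was made from the pooled thymi of 6 male C57/BL6 mice, 4 months old. A second RNA library came from epigonadal white fat of 4-month males; the labels do not state how many animals were behind it. A 10x multiome assay, which reads RNA and open chromatin from the same nuclei, was run on the pooled thymi of 16 females, 6 months old, and only its chromatin fragments were used here. All mice were wild type, naïve and on standard chow. Fat attached to the outside of the thymus was removed, the tissue was digested with collagenase, and nuclei were isolated from the floating layer. Each group was 1 library, so no difference below has a replicate check and no test between groups was possible. Every interval is a 95% interval of counting error only.

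The Ad I nuclei were shallow. They held 61235 UMIs (single counted RNA molecules), of which 52241 came from nuclear-encoded genes. Their median was 500.5 UMIs, from 328 to 6655, against 1696 in Ad IIa, 1801.5 in Ad IIb, 1523 in Ad IIc and 308 in the unlabelled barcodes. Ad Ia had a median of 604 UMIs and Ad Ib 442. The deepest nucleus of Ad Ia carried 20.6% of that label's UMIs and the deepest of Ad Ib 13.1%. Mitochondrial RNA made up a median of 15.5% of UMIs in Ad Ia and 18.2% in Ad Ib, with no Ad I nucleus above 19.9%, and 69.3% in the unlabelled barcodes. No Ad I barcode was among the 147 barcodes that the RNA libraries shared. Levels are given as CPM, the count of a gene scaled to the nuclear-encoded UMIs of its label. A list of 3 RNAs that stay in the nucleus (Malat1, Neat1, Meg3) stood at 73213 CPM in Ad Ia and 43975 in Ad Ib, above the 17823 of Ad IIa and the 21680 of the unlabelled barcodes. A gene with 0 UMIs could still stand at up to 57.4 CPM in Ad I, the level of 3 counts.

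The authors' labels were named from clusters of the same RNA, so every difference between labels in the thymic library describes the annotation. With that limit, 7 genes were used as Ad I markers: Ghr, the growth hormone receptor, Fam13a, a gene tied to fat distribution, Pde3b, the phosphodiesterase through which insulin lowers cyclic AMP, Slc1a3, a glutamate transporter, Acsl1, which activates long-chain fatty acids, Ppara, which encodes PPAR alpha, and Acss3, a mitochondrial acyl-CoA synthetase. Their summed level was 29719 CPM in Ad Ia and 14808 in Ad Ib. The sum was 590 in Ad IIa, 740 in Ad IIb, 479 in Ad IIc and 3109 in the unlabelled barcodes. At least 1 of the 7 genes was found in 82 of 84 Ad I nuclei and at least 3 in 71.

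Ghr (ENSMUSG00000055737, chromosome 15, 3317755 to 3583352 in GRCm38) was the most abundant marker. Ad Ia had 413 UMIs of it (14932 CPM), Ad Ib 105 (4271 CPM), Ad IIa 160 (399 CPM), Ad IIb 17 (629 CPM), Ad IIc 17 (313 CPM) and the unlabelled barcodes 4930 (1071 CPM). Both Ad I labels lay above all the others, with intervals that did not overlap. A Ghr UMI was present in 97.1% of Ad Ia nuclei, 77.6% of Ad Ib, 31.6% of Ad IIa and 11.3% of unlabelled barcodes, whose median depths were 491, 363, 1489 and 97 nuclear-encoded UMIs. At a common depth of 250 UMIs the expected shares were 92.1%, 62.7%, 7.71% and 14.9%, and 18005 unlabelled barcodes were too shallow to enter. The gap between Ad I and Ad IIa was therefore wider at equal depth than in the raw shares.

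Fam13a (ENSMUSG00000037709, chromosome 6, 58933536 to 59024502) had 89 UMIs in each Ad I label, or 3218 CPM in Ad Ia and 3621 in Ad Ib, against 39.9 in Ad IIa, 0 in Ad IIb, 55.3 in Ad IIc and 476 in the unlabelled barcodes. Ppara (ENSMUSG00000022383, chromosome 15, 85734910 to 85806851) had 33 UMIs (1193 CPM) in Ad Ia and 56 (2278 CPM) in Ad Ib, against 17.4 CPM in Ad IIa, 37.0 in Ad IIb, 18.4 in Ad IIc and 299 in the unlabelled barcodes. Over all nuclei, Ppara was the only one of the 7 markers whose interval placed Ad Ib above Ad Ia, and this depended on single deep nuclei as given below for both Ppara and Fam13a. In Ad I over Ad IIa the log2 ratio was 4.63 (4.38 to 4.90) for Ghr, 6.38 (5.68 to 7.26) for Fam13a and 6.52 (5.51 to 7.97) for Ppara.

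**Figure D1:**
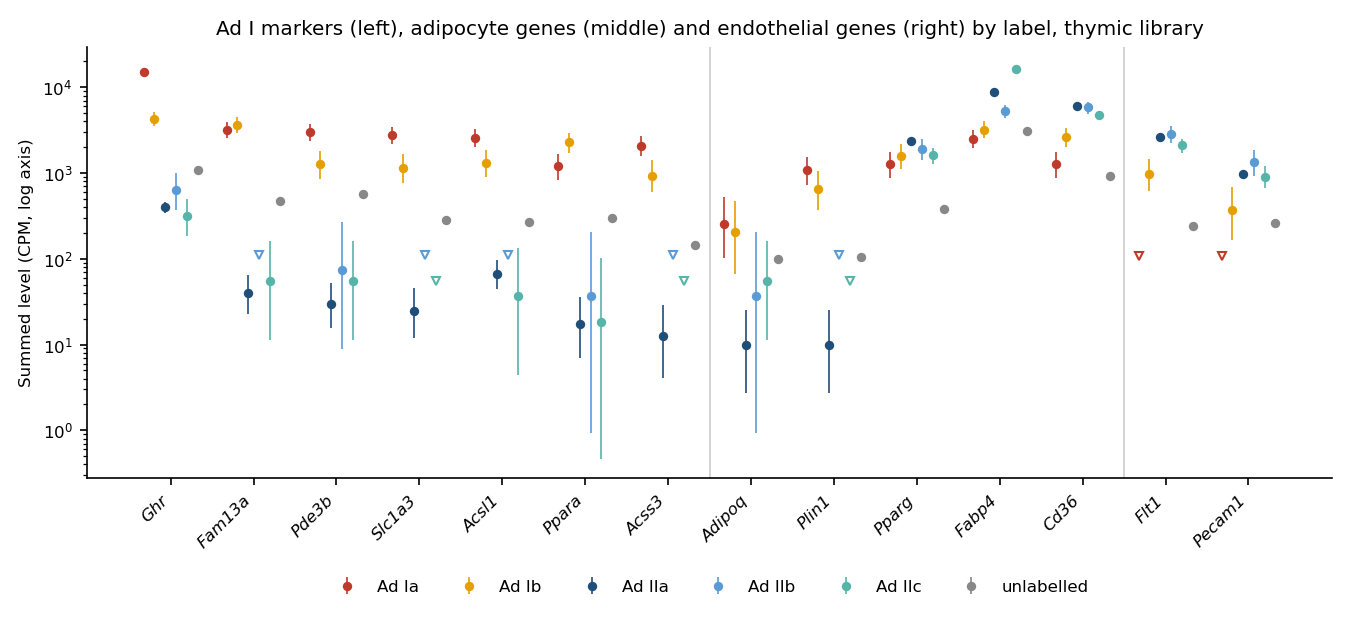
Summed level in CPM (log axis) of 7 Ad I markers, 5 adipocyte genes and 2 endothelial genes in each label of the thymic library. Points are sums over the nuclei of a label, bars are exact Poisson 95% intervals for counting error, and open triangles mark labels with 0 UMIs at the level of 3 counts. Ad Ia and Ad Ib lie above the other labels for the first 7 genes, while Pparg, Fabp4 and Cd36 are higher in Ad IIa than in Ad I, and Flt1 and Pecam1 have 0 UMIs in Ad Ia.

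Of the general fat cell genes, some were high in Ad I and some were not. The 7 adipocyte markers (Adipoq, Plin1, Plin4, Cidec, Lipe, Pparg and Cebpa) were all detected in Ad I and summed to 4441 CPM, against 2578 in Ad IIa, where Pparg gave 952 of the 1035 UMIs. Plin1, the perilipin that guards the droplet, had 30 UMIs in Ad Ia and 16 in Ad Ib (1085 and 651 CPM), 4 in Ad IIa (10.0 CPM), 0 in Ad IIb and Ad IIc, and 104 CPM in the unlabelled barcodes. Adipoq, which encodes the hormone adiponectin, had 7 and 5 UMIs in Ad Ia and Ad Ib (253 and 203 CPM), against 10.0 CPM in Ad IIa and 99.5 in the unlabelled barcodes. Only 5 of 35 Ad Ia and 4 of 49 Ad Ib nuclei had an Adipoq UMI. Lep, which encodes leptin, had 0 UMIs in Ad I. Pparg, the master regulator of fat cell formation, went the other way: Ad IIa stood at 2371 CPM, Ad Ib at 1587 and Ad Ia at 1265.

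Apart from Ebf1 of the B-cell list, markers of other cell types had few UMIs in most Ad I nuclei. Several of these lists stood higher in Ad Ib than in Ad Ia. The 12 endothelial markers summed to 2 UMIs in Ad Ia (72.3 CPM), where 10 of them, among them Pecam1, Kdr, Flt1 and Tek, had 0 UMIs. They summed to 65 UMIs in Ad Ib (2644 CPM), against 9339 CPM in Ad IIa, 9808 in Ad IIb, 8422 in Ad IIc and 1103 in the unlabelled barcodes. The Ad Ib endothelial UMIs lay almost wholly in 3 nuclei with 40, 10 and 11 of them. Each of these had UMIs of 3 or more of the marker genes, and 3 other Ad Ib nuclei had 1 or 2 endothelial UMIs. These 3 nuclei held 6855 UMIs, or 23.6% of all Ad Ib UMIs, and the comparison of Ad Ia with Ad Ib is given with and without them. Without them Ad Ib stood at 5415 CPM for Ghr, 4594 for Fam13a, 3008 for Ppara, 2516 for Fabp4 and 1914 for Cd36. Schwann, mesothelial and lymphatic markers had 0 UMIs in Ad I. Macrophage markers had 6, with Ptprc, Adgre1 and Lyz2 at 0 and Csf1r, Mrc1, Cd68 and C1qa detected. Fibroblast markers had 10, with Pdgfra, Col1a1, Dcn and Lum at 0 and Col1a2, Col3a1, Dpt and Fbn1 detected. Mural markers had 18, with Pdgfrb, Acta2, Myh11 and Kcnj8 at 0 and Rgs5, Notch3, Cspg4 and Abcc9 detected. By label, macrophage markers had 0 UMIs in Ad Ia and 6 in Ad Ib (244 CPM). Fibroblast markers had 4 and 6 (145 and 244 CPM), and mural markers 4 and 14 (145 and 570 CPM). Summed over both Ad I labels, these lists were nevertheless above Ad IIa in CPM. Macrophage markers stood at 115 against 9.96, fibroblast markers at 191 against 17.4 and mural markers at 345 against 59.8. By the rule given further on, Abcc9 (10 UMIs in Ad I) was called higher of 2 mural markers with at least 5 UMIs. Col3a1 was called higher of 2 such fibroblast markers. Of all genes 10.0% were called higher. The part of these cell types in the results was not tested. Thymic epithelial markers had 3 UMIs, all of Ccl25, and skeletal muscle markers 1. Thymocyte markers summed to 398 CPM in Ad Ia and 692 in Ad Ib, which was 7.36% and 12.8% of the level in the unlabelled barcodes, against 2.90% in Ad IIa. Of 6 thymocyte markers with at least 5 UMIs, Rag1 and Themis were called higher in Ad I than in Ad IIa by the same rule (10.0% of all genes). With the unlabelled profile taken off each label in these shares, the medians over Ad IIa of the identity and thermogenic lists described further on were 3.09 and 3.33. Erythroid markers summed to 517 CPM in Ad I and 25948 in Ad IIc. Ebf1, a gene shared by B cells and fat cell precursors, gave nearly all of the B-cell list, with 3399 CPM in Ad Ia and 4027 in Ad Ib.

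Over all genes with at least 10 expected UMIs, 211 of 1011 were at least 2-fold higher in Ad I than in Ad IIa (20.9%) and 305 at least 2-fold lower (30.2%). Scaled by TMM or by the median of ratios, which lowers each log2 ratio by 0.41 or 0.36, the numbers were 168 and 492, or 170 and 466. Against Ad IIb 80 of 377 were higher (21.2%) and 146 lower (38.7%), or 157 and 127 by TMM, which adds 0.48. Against Ad IIc 251 of 947 were higher (26.5%) and 318 lower (33.6%). Against the unlabelled barcodes 253 of 896 were higher (28.2%) and 175 lower (19.5%), or 189 and 384 by TMM, which takes off 0.56. Lower genes outnumbered higher ones under each of the 3 scalings against Ad IIa and Ad IIc, whereas against Ad IIb and the unlabelled barcodes the direction that held more genes turned with the scaling. With a pseudocount of 5 in place of 0.5 the majority against Ad IIa turned too, at 252 higher and 227 lower.

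The 25 leading genes were those with the highest counting bound over all 4 comparators at once. Beside Ghr, Fam13a, Acss3, Slc1a3, Acsl1 and Plin1 they held Slc24a3, a sodium, calcium and potassium exchanger, Thrb, a thyroid hormone receptor, Dpyd, which breaks down pyrimidines, Tenm4, a teneurin, Slc1a5, a glutamine transporter, and Erbb4, a receptor of neuregulins. Acaca, the rate-limiting enzyme of fatty acid synthesis, Pcx, pyruvate carboxylase, Acvr1c, an activin receptor of fat cells, Prkar2b, a regulatory subunit of protein kinase A, Sik2, a kinase of insulin signalling, and the RNA genes Ctcflos and Mir99ahg were among them too. Slc24a3 had 52 UMIs in Ad I (25 and 27 in its labels), 1 each in Ad IIa and Ad IIc, 0 in Ad IIb and 95.8 CPM in the unlabelled barcodes, against 995 CPM in Ad I. Erbb4 had 35 and 20 UMIs in Ad Ia and Ad Ib (1265 and 814 CPM), 7 in Ad IIa (17.4 CPM) and 0 in Ad IIb and Ad IIc. Fgf14, an intracellular relative of the fibroblast growth factors, had 36 UMIs in Ad I and 0 in Ad IIa, so it was at least 92.2-fold higher with 3 counts set for Ad IIa. Bounds of this kind leave out the counting error of the other side, and the counting interval of the Fgf14 log2 ratio began at 6.15. Mlxipl, which encodes the glucose-sensing factor ChREBP, had 33 and 0 UMIs (at least 84.5-fold), and Tshr, the thyrotropin receptor, 30 and 0 (at least 76.8-fold). The unlabelled barcodes were among the comparators of the rules that named these genes, so a higher level in Ad I was part of the choice. The log2 ratio over these barcodes was 3.39 for Slc24a3, 2.64 for Erbb4 and 3.59 for Mlxipl.

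In the gene lists, a member with at least 5 UMIs over both sides was called higher or lower where the log2 ratio was at least 1 in size with an interval off 0. Over all such genes 10.0% were called higher and 8.18% lower in Ad I than in Ad IIa, with a median of 0.0034. Of the adipocyte identity list 11 of 18 were higher (Adipoq, Plin1, Plin4, Cidec, Lipe, Lpl, Car3, Cfd, Retn, Acsl1 and Slc2a4) and 3 lower (Fabp4, Cd36 and Aqp7), with a median log2 ratio of 2.94. Fabp4, the fatty acid binding protein shared by fat cells and capillary endothelium, had 2495 CPM in Ad Ia and 3214 in Ad Ib, against 8860 in Ad IIa, 16310 in Ad IIc and 3101 in the unlabelled barcodes. Cd36, a fatty acid transporter of both cell types, had 1265 and 2604 CPM, against 6125 in Ad IIa and 920 in the unlabelled barcodes. The log2 ratio of Fabp4 over the unlabelled barcodes was -0.13 (-0.37 to 0.10).

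Genes that make and store fat were mostly higher in Ad I. Triglyceride synthesis had 10 of 11 members higher and 0 lower, with a median of 4.22: Dgat2, which adds the last fatty acid, had 21 UMIs in Ad I and 1 in Ad IIa (402 and 2.49 CPM), and Lpin1, a phosphatidate phosphatase, 766 and 19.9 CPM. De novo lipogenesis had 11 of 14 higher and a median of 2.78, led by Mlxipl and by Pnpla3, a droplet lipase (19 and 0 UMIs, at least 48.7-fold). Elovl5, Fasn and Scd2 were not called. Fasn, fatty acid synthase, had 1 UMI in Ad I, or 19.1 CPM, against 29.9 in Ad IIa and 127 in the unlabelled barcodes, and Scd2 had 0 UMIs in Ad I. Lipolysis and its control had 11 of 16 higher and 1 lower, with a median of 3.18. Its members Pde3b (2182 CPM against 29.9), Prkar2b (1417 against 32.4) and Lipe, the hormone-sensitive lipase (1034 against 152), were higher, and Mgll, which cleaves monoglycerides, was lower (651 against 1539).

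Fatty acid uptake was split. Lpl, Slc27a1, Acsl1, Acss3 and Vldlr were higher and Cd36, Fabp4, Fabp5 and Gpihbp1 lower among 14 members, with a median of 0.25, or 1.32 with genes at 0 UMIs set to 3 counts. The first of these is smaller than the TMM shift, so the side of 0 on which the list lies depends on the scaling. Slc27a1, a fatty acid transporter of muscle and fat, had 25 UMIs in Ad I and 0 in Ad IIa (at least 64.0-fold). Gpihbp1, which holds lipoprotein lipase on the capillary wall, had 76.6 CPM in Ad I and 453 in Ad IIa. Fabp5 had 0 UMIs in Ad I and 179 CPM in Ad IIa (at least 3.12-fold lower). The endothelial markers were lower in Ad I for 11 of 11 members at this depth, with a median of -2.94, or -2.46 with zeros at 3 counts.

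Of the genes that burn fuel, part were called higher in Ad I than in Ad IIa and 0 lower. Fatty acid oxidation had 12 of 24 members higher (median 1.88), the TCA cycle and pyruvate list 12 of 24 (1.60), and branched-chain amino acid breakdown 9 of 16 (1.94). Over Ad IIc the TCA cycle and pyruvate list had 5 of 18 measured members higher and Idh3b lower (median 1.02), where 13.0% of all genes were called higher and 12.9% lower. Over the unlabelled barcodes the medians of the TCA and oxidation lists were 1.01 and 1.09, where all genes with at least 5 UMIs stood at 0.85. The 0.5 UMI added raises the ratio of genes with 0 UMIs in Ad I, the shallower side. Over genes with at least 10 expected UMIs the median was 0.32. Acadm, the medium-chain acyl-CoA dehydrogenase, had 498 CPM in Ad I and 62.3 in Ad IIa, and Bckdhb, a subunit of the branched-chain ketoacid dehydrogenase, 440 and 29.9. Cpt1b, the muscle and brown fat form of the enzyme that admits fatty acids to mitochondria, had 13 UMIs in Ad I and 4 in Ad IIa (249 and 9.96 CPM). The liver form, Cpt1a, had 0 and 10 UMIs.

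The thermogenic list had 9 of 14 members higher and 0 lower, with a median of 3.11: Ppara, Ppargc1b, Esrrg, Ebf2, Kcnk3, Pank1, Cidea, Gk and Ucp1. Ppargc1b, a PGC-1 coactivator, had 21 and 34 UMIs in Ad Ia and Ad Ib (759 and 1383 CPM), 22.4 CPM in Ad IIa and 177 in the unlabelled barcodes. Esrrg, an oestrogen-related receptor, had 555 CPM in Ad I against 4.98 in Ad IIa and 78.2 in the unlabelled barcodes. Ebf2, a factor of brown fat precursors, had 861 CPM against 7.47 and 124. Ucp1 itself had 5 UMIs in 4 Ad I nuclei. Its level of 95.7 CPM was above the 17.4 of Ad IIa (log2 ratio 2.49, 0.46 to 4.33) but close to the 90.4 of the unlabelled barcodes (log2 ratio 0.22). Cidea stood at 306 CPM in Ad I and 201 in the unlabelled barcodes. Elovl3, Ckb and Zic1 had 0 UMIs in Ad I, and Cox8b, with 5 UMIs, was not called.

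Hormone and nuclear receptor genes followed. Of the growth hormone and insulin list 11 of 20 were higher and 4 lower (Igf1r, Jak2, Socs2 and Pik3ca), with a median of 1.53. Irs1, an insulin receptor substrate, had 18 UMIs in Ad I and 0 in Ad IIa (at least 46.1-fold), and Igf1 306 and 7.47 CPM. Jak2, the kinase that carries the growth hormone signal, had 0 UMIs in Ad I and 110 CPM in Ad IIa (at least 1.91-fold lower), and Socs2, a feedback inhibitor that growth hormone induces, 0 UMIs and 115 CPM (at least 2.0-fold lower). Of the nuclear receptors and coregulators 9 of 20 were higher and 0 lower. Thrb had 1244 CPM in Ad I and 12.5 in Ad IIa.

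Secreted products had 7 of 11 members higher and 0 lower. Nrg4, a neuregulin released by fat, had 14 UMIs in each Ad I label (506 and 570 CPM) against 7.47 CPM in Ad IIa, and Vegfa, the vessel growth factor, 325 against 4.98. Both receptor Erbb4 and ligand Nrg4 were thus higher, the only members of the Erbb list with at least 5 UMIs. Factors that act on the thymus showed no common direction: Igf1 and Jag1 were higher and Kitl and Cxcl12 lower among 11 members, and the median of -0.96 became 0.36 with zeros at 3 counts. Kitl, stem cell factor, stood at 1502 CPM in Ad IIa and 325 in Ad Ib with 0 UMIs in Ad Ia, and 6 of the 8 Ad Ib UMIs lay in the 3 nuclei with endothelial RNA. Genes induced by tissue digestion were not higher in Ad I (0 higher, and Egr1 and Dusp1 lower, of 9).

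**Figure D2:**
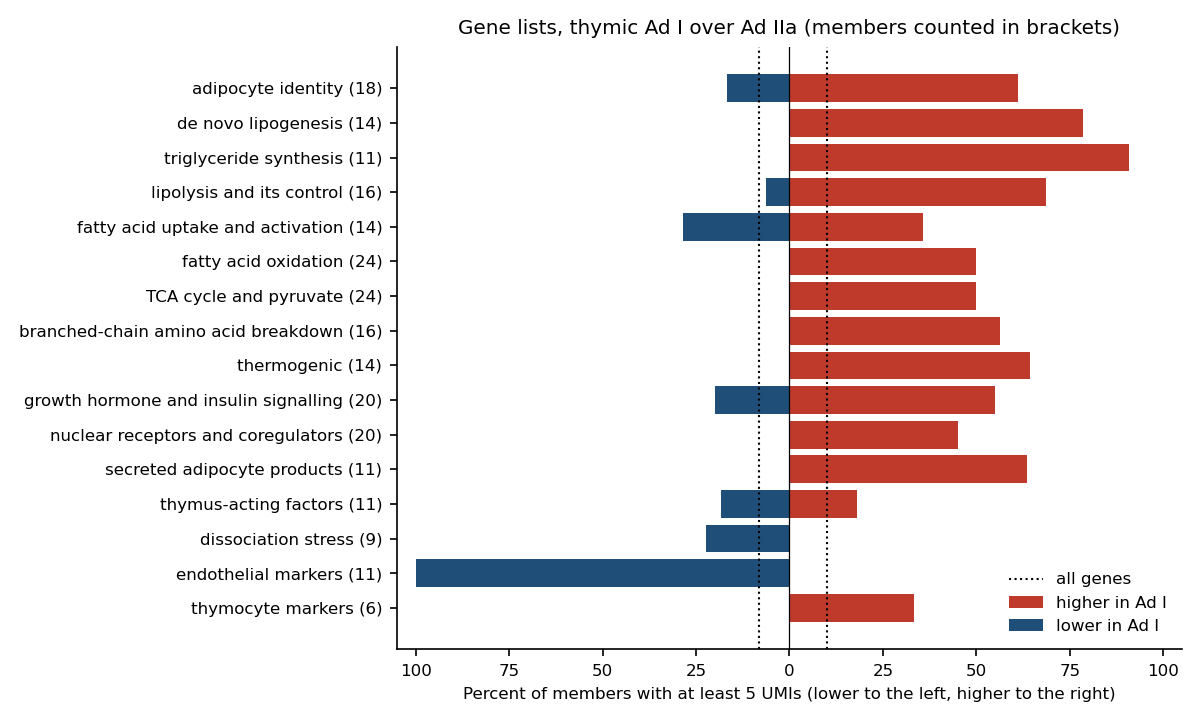
Percent of the members of 16 gene lists called at least 2-fold higher (right) or lower (left) in thymic Ad I than in Ad IIa, with the number of members that had at least 5 UMIs in brackets. Dotted lines give the same over all genes, 10.0% and 8.18%. The storage, oxidation and thermogenic lists reach further to the right than the dotted line, and the endothelial markers lie wholly to the left.

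The genes lowest in Ad I against Ad IIa by the counting bound were Dach1, Galnt18, Eng, Prkch, Zfp608, Etl4, Sema6a, Pkp4, Cyyr1 and Plpp1. Eng, the TGF-beta coreceptor endoglin of vessels, had 0 UMIs in Ad I and 583 CPM in Ad IIa (at least 10.2-fold lower). Dach1 stood at 3198 CPM in Ad IIa, with 9 UMIs in Ad Ib and 0 in Ad Ia, and 9 of these 10 genes had 0 UMIs in Ad Ia. Against the other Ad II labels the lists gave the following counts. The identity list had 7 of 16 members higher and 2 lower against Ad IIb (8.88% and 14.4% of all genes) and 10 of 16 higher and 3 lower against Ad IIc (13.0% and 12.9%). The thermogenic list had 7 of 11 and 6 of 11 higher and 0 lower, and the endothelial markers had 9 of 10 and 11 of 11 lower.

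Against the unlabelled barcodes the differences were smaller. All 7 Ad I markers were called higher (6.58% of all genes), with a median log2 ratio of 2.84. They were chosen as markers of this label with earlier results of these data known, so that count follows from the choice. All genes with at least 5 UMIs had a median of 0.85, and those with at least 10 expected UMIs 0.32. The identity list had 11 of 19 members higher and 0 lower (median 1.42) and the thermogenic list 10 of 22 (2.02, or 1.16 over nuclei with at least 500 UMIs). That limit of 500 UMIs was set for the Ad I nuclei only, with all unlabelled barcodes kept. By TMM, which takes 0.56 off every ratio, the identity median was 0.86, and by the median of ratios 0.91. The genes lowest in Ad I were Hbb-bs and 9 genes of lymphocytes: Ptprc, Skap1, Ikzf1, Lef1, Camk4, Themis, Tox, Aff3 and Arhgap15. Ptprc, the leukocyte antigen CD45, had 7687 UMIs (1670 CPM) in the unlabelled barcodes and 0 in Ad I, at least 29.1-fold lower, and 3.28% of all genes were called lower. Ghr stood higher in the unlabelled barcodes, at 1071 CPM, than in Ad IIa (399), Ad IIb (629) or Ad IIc (313). In the 219 unlabelled barcodes with under 10% mitochondrial RNA the medians were 3.92 for identity and 4.27 for the thermogenic list.

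Ad Ia and Ad Ib differed from each other in fewer genes. Of 292 genes with at least 10 expected UMIs, 44 were at least 2-fold higher in Ad Ia (15.1%) and 30 at least 2-fold lower (10.3%). By the median of ratios, which adds 0.17, the numbers were 69 and 25. Without the 3 Ad Ib nuclei with endothelial RNA they were 26 and 17, without the deepest nucleus of each label 37 and 11, and over nuclei with at least 500 UMIs 26 and 15. The identity list had 6 of 15 members higher in Ad Ia (Cidec, Lipe, Car3, Cfd, Retn and Pnpla2) and Cd36 lower, with a median of 0.97, or 0.54 without the 3 nuclei and 2.33 over nuclei with at least 500 UMIs. Without the 3 nuclei the calls of Cd36 and Retn were lost, and they were lost without the deepest Ad Ia nucleus too. Retn had 7 UMIs in Ad Ia, 4 of them in that nucleus, and 0 in Ad Ib. Its log2 ratio was 3.31 without the 3 nuclei and 2.97 without the deepest Ad Ia nucleus, with lower bounds of -0.070 and -1.12. Over all genes with at least 5 UMIs 4.18% were called higher and 5.63% lower. The thermogenic list had 0 of 11 higher and 2 lower (Cidea and Pank1), with a median of -0.92, or -1.42 without the 3 nuclei. Without the deepest Ad Ia nucleus neither was called: Cidea was at -1.32 (-3.52 to 0.30) and Pank1 at -1.22 (-2.78 to 0.030). The median over all genes was -0.17.

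Car3, a carbonic anhydrase of fat, had 123 UMIs in Ad Ia and 23 in Ad Ib (4447 and 936 CPM), a log2 ratio of 2.22 (1.60 to 2.96), and Cidec, which fuses lipid droplets, 28 and 4 (1012 and 163 CPM; 2.49, 1.12 to 4.61). Cfd, which encodes adipsin, had 58 and 9 UMIs (2097 and 366 CPM; 2.45, 1.49 to 3.72), with 25 of the 58 in the deepest Ad Ia nucleus. Without that nucleus the log2 ratio was 1.98 (0.94 to 3.28) for Cfd and 2.12 for Car3. Ifi27l2a, an interferon-induced gene, had 39 and 7 UMIs, but 30 of the 39 lay in that nucleus and the log2 ratio was 2.23 with it and 0.50 (-1.07 to 2.18) without. Trf, transferrin, had 20 UMIs in Ad Ia and 0 in Ad Ib (at least 5.93-fold higher), of which 17 were in 1 nucleus. Olfr1033, an olfactory receptor gene, likewise had 20 and 0, with 12 in 1 nucleus. Slc1a5 (48 and 9 UMIs), Hacd2, of very long fatty acid synthesis (31 and 5), and Auts2 (21 and 2) were also higher in Ad Ia.

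In the other direction, the 10 genes lowest in Ad Ia by the counting bound were Flt1, Ccdc85a, Plcb4, Sptbn1, Tcf4, Itpr2, Satb1, Pdzd2, Itga1 and Cd36. The 3 nuclei with endothelial RNA held all 24 Flt1 and all 24 Ccdc85a UMIs of Ad Ib, 22 of 32 of Plcb4, 19 of 30 of Sptbn1, 29 of 64 of Cd36, 32 of 43 of Tcf4, 16 of 22 of Pdzd2 and 18 of 21 of Itga1. Without them Tcf4 was at -0.17, Pdzd2 at -0.39, Itga1 at 0.50 and Cd36 at -0.60 (-1.32 to 0.12), all with intervals across 0. Plcb4 was at -3.40 (-9.36 to -1.11) and Sptbn1 at -1.66 (-3.61 to -0.092). Itpr2, an inositol trisphosphate receptor of calcium stores, had 38 UMIs in Ad Ib of which 1 lay in these nuclei, and its log2 ratio was -1.68 (-2.75 to -0.78) with them and -2.07 (-3.14 to -1.16) without. Satb1, a chromatin organiser abundant in thymocytes (4113 CPM in the unlabelled barcodes), was at -1.70 with them and -1.80 without.

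Ppara, with 33 and 56 UMIs, had a log2 ratio of -0.92 (-1.60 to -0.29), Ppargc1b -0.85 (-1.72 to -0.039), Pank1, a kinase of coenzyme A synthesis, -1.55 (-3.10 to -0.30), Ebf2 -0.87 (-1.85 to 0.030) and Esrrg -0.86 (-2.11 to 0.28). Without the 3 Ad Ib nuclei all 5 lay lower with intervals below 0, from -1.20 for Esrrg to -1.98 for Pank1, with Ppara at -1.33 (-2.0 to -0.69). Fam13a, at -0.17 (-0.61 to 0.27) over all nuclei, was at -0.51 (-0.96 to -0.066) without them. Without the deepest Ad Ia nucleus, which carried 0 Ppara and 0 Ppargc1b UMIs, the 5 intervals included 0, with Ppara at -0.60 (-1.27 to 0.041). All 5 stayed on the Ad Ib side, but whether counting error reached 0 rested on which of 4 deep nuclei were kept.

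**Figure D3:**
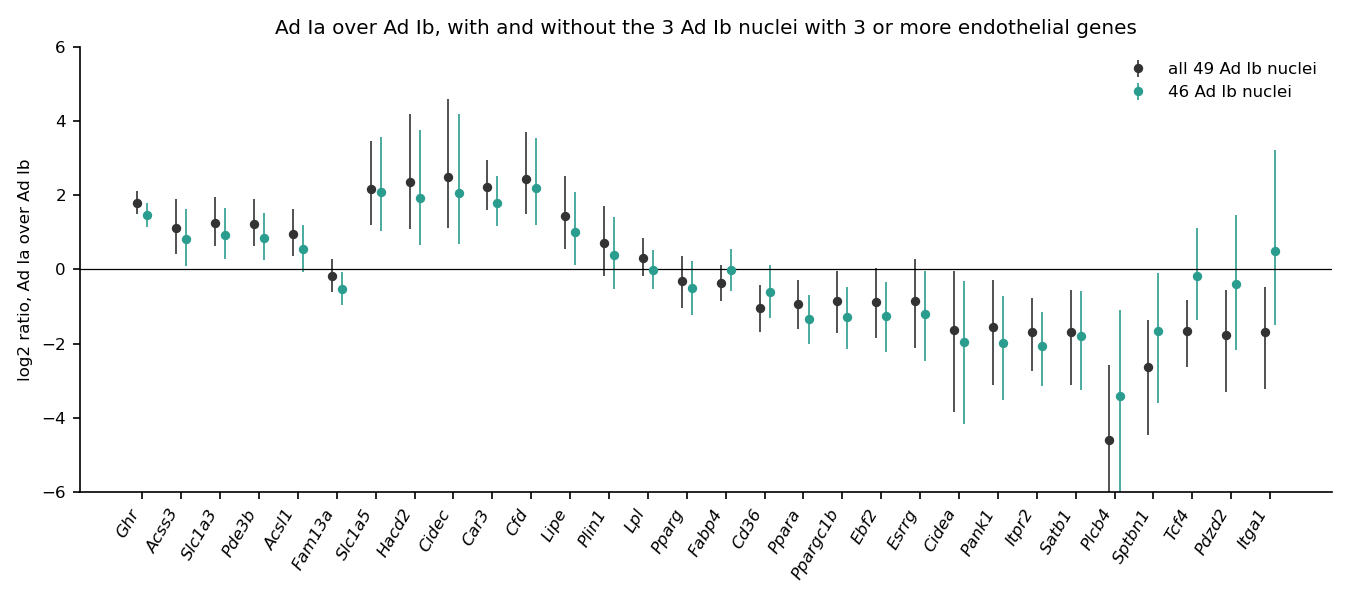
Log2 ratio of Ad Ia over Ad Ib for 30 genes, over all 49 Ad Ib nuclei (black) and over the 46 with fewer than 3 endothelial marker genes (green). Points are ratios of summed UMIs and bars are exact binomial 95% intervals, which run past the lower edge of the axis for Plcb4. Ghr, Car3, Cidec and Cfd stay above 0 in both, Ppara and Itpr2 stay below 0 in both, and Tcf4, Pdzd2 and Itga1 move to intervals that cross 0.

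Single nuclei varied within each label. The 7 Ad I markers made up a median of 3.17% of nuclear-encoded UMIs in Ad Ia nuclei (0.548% to 5.93%) and 1.68% in Ad Ib nuclei (0% to 4.82%). The thermogenic list made up a median of 0.401% in Ad Ia (0% to 2.97%) and 0.816% in Ad Ib (0% to 2.74%). The ranges of the labels overlapped in both. The 3 deepest Ad Ia nuclei, with 5624, 2368 and 1790 nuclear-encoded UMIs, had 2, 1 and 2 thermogenic UMIs but 104, 83 and 52 Ad I marker UMIs. The fourth, with 1231, had 11 thermogenic UMIs from 7 genes. Of the 3 Ad Ib nuclei with endothelial RNA the 2 deepest had 9 and 8 Ad I marker UMIs out of 3543 and 1935, and the other had 0 of 820. Their authors' label, doublet class (singlet) and sub-cluster were those of the other Ad Ib nuclei. Whether they are Ad I nuclei was not tested.

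**Figure D4:**
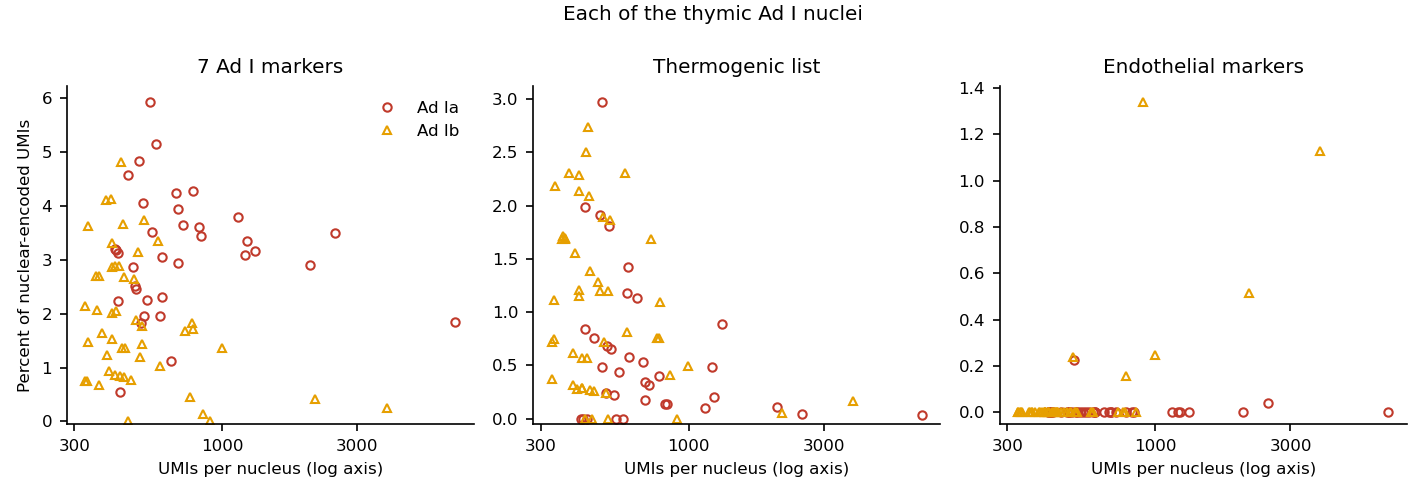
Percent of nuclear-encoded UMIs in the 7 Ad I markers (left), the 23 thermogenic genes (middle) and the 12 endothelial markers (right) against the UMIs of each of the 84 thymic Ad I nuclei (log axis). Circles are Ad Ia and triangles Ad Ib nuclei. Most nuclei lie at 0 for the endothelial markers, and 3 Ad Ib nuclei stand above 0.5%.

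The leading genes were looked up in the epigonadal library, which the rule for choosing them did not use. The authors clustered both RNA libraries together, however, so their labels are not independent there. Epigonadal Ad I had 258 nuclei with 263848 nuclear-encoded UMIs and epigonadal Ad IIa 1237126. All 25 genes were called higher in epigonadal Ad I, where 14.7% of all genes were, with a median log2 ratio of 4.50 from 2.42 for Prkar2b to 8.67 for Erbb4, whose 0 UMIs in Ad IIa make its value depend on the 0.5 added. Ghr had 13591 CPM in epigonadal Ad I and 632 in epigonadal Ad IIa, close to its ratio in the thymus (4.43 against 4.63). Erbb4 had 43 and 0 UMIs. The identity genes were mixed there. Acsl1 was at 3.06 (2.78 to 3.35), Plin1 at 2.67 (2.32 to 3.02), Cidec at 2.18 (2.03 to 2.34), Lipe at 1.35 (1.12 to 1.59) and Plin4 at 1.25 (0.90 to 1.57). Adipoq was at -0.23 (-0.55 to 0.077), Car3 at -0.0044 (-0.089 to 0.079) and Cfd at -0.48 (-0.61 to -0.36) in the epigonadal library, against 4.42, 3.12 and 3.15 in the thymus. Cd36 at -1.95 and Fabp4 at -1.31 were lower in Ad I there too. Whether the ratios differ between the libraries was not tested.

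Chromatin was read in 6-month female thymic nuclei that the authors labelled thyAD I (146 nuclei, 1646902 fragments) and thyAD II (140 nuclei, 2189613 fragments), in the 317 complete rows of the label table. Whether thyAD I matches Ad I of the males, or thyAD II their Ad II labels, was not tested. Fragments were counted over each gene with 2 kb on either side. Here 5.55% of 27856 genes with at least 10 fragments were higher in thyAD I with an interval off 0 and 5.60% lower. No fold size was asked for, so genes with more fragments are called more readily in either direction. Of the 25 leading genes 8 were higher and 3 lower, with a median log2 ratio of 0.13 where all genes had -0.023. Rgs7, a regulator of G-protein signalling (0.89, 0.64 to 1.15), and Fgf14 (0.85, 0.56 to 1.14) were highest. Ghr was lowest, with 608 fragments in thyAD I and 1127 in thyAD II (-0.48, -0.62 to -0.34). It led in RNA, where the comparators were the Ad II labels and unlabelled barcodes of the males. The reason for the difference was not tested. Of the 7 markers only Ppara (200 and 162 fragments; 0.71, 0.41 to 1.02) and Acsl1 (745 and 836; 0.24, 0.10 to 0.39) were higher. Ghr was lower, and the median of the 7 was -0.052. The thermogenic list had 15 of 23 members higher and 0 lower, with a median of 0.54, and the identity list 8 of 20 and 0 (0.17). Ucp1 had 47 and 13 fragments (2.23, 1.36 to 3.28), Cpt1b 41 and 19 (1.5, 0.70 to 2.39) and Esrrg 381 and 296 (0.77, 0.55 to 1.0). Endothelial markers had 0 higher and 2 lower of 12, Cldn5 and Flt1.

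**Figure D5:**
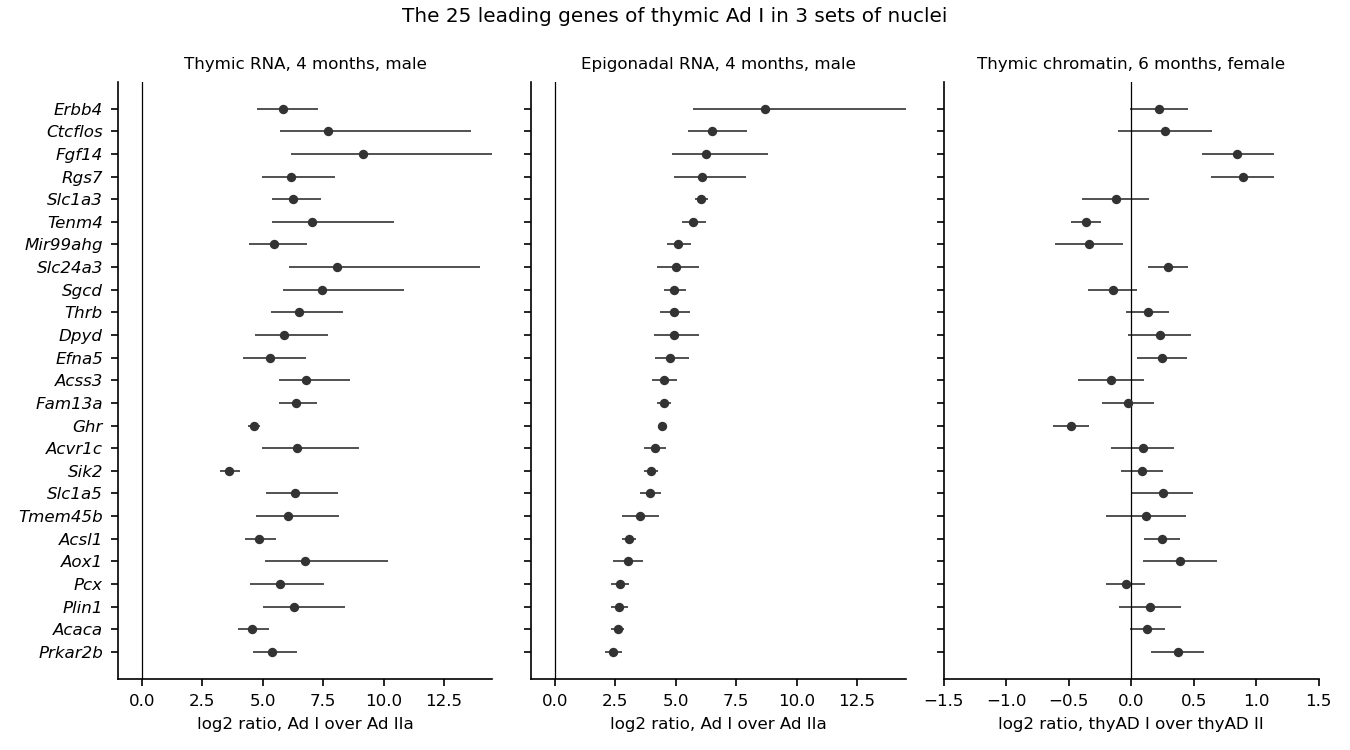
Log2 ratios of the 25 leading genes in thymic RNA (left) and epigonadal RNA (middle), both Ad I over Ad IIa, and in thymic chromatin (right, thyAD I over thyAD II, on a narrower axis). Points are ratios of summed UMIs or fragments and bars exact binomial 95% intervals, 2 of which run past the edge of the axis. The genes were chosen in part by the ratios of the left panel, so all 25 lie above 0 there by choice. All 25 lie above 0 in the middle panel too, and the chromatin ratios lie between -0.48 and 0.89 on both sides of 0.

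The starts of 4 genes are shown for these reasons: Fam13a and Ppara as markers, Rgs7 as the leading gene with the highest thyAD I chromatin ratio, and Ucp1 as the gene with the highest thyAD I chromatin ratio of the thermogenic list. Each line gives the 150 bases before the annotated start in RefSeq, build GRCm38.p6, 5′ to 3′ on the gene's strand, with the letters AGGTCA in capitals, the core site to which PPAR and related nuclear receptors bind. The windows are chr6:59024503-59024652 on the minus strand for Fam13a, chr15:85735626-85735775 on the plus strand for Ppara, chr1:175492546-175492695 on the minus strand for Rgs7 and chr8:83290198-83290347 on the plus strand for Ucp1. For Ppara and Rgs7 the window lies inside the gene span (85734910 to 85806851 and 175059076 to 175492862), so the start shown is an internal one.
Fam13a: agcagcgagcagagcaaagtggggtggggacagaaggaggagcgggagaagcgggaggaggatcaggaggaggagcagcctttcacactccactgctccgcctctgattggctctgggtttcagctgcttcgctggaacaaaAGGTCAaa
Ppara: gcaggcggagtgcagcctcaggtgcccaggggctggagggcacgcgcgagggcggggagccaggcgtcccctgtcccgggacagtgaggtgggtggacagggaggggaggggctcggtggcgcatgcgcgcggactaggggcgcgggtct
Rgs7: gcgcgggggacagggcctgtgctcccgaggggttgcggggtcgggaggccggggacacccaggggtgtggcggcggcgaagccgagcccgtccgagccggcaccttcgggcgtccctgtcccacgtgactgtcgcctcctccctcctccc
Ucp1: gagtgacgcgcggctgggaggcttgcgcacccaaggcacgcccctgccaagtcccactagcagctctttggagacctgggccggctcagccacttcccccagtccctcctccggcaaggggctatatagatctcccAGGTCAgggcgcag

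At the starts themselves, in the 300 bases of the RefSeq window with 250 on either side, Ucp1 had 16 thyAD I and 2 thyAD II fragments (log2 ratio 3.13, 1.32 to 6.58) and Rgs7 26 and 16 (1.09, 0.16 to 2.11). These genes were chosen by their ratio over a region that holds these starts, so the values at the starts are not independent of that choice. Fam13a had 47 and 60 (0.062, -0.52 to 0.63) and Ppara 81 and 81 (0.41, -0.052 to 0.87), both with intervals across 0. Another marker, Acsl1, had 185 and 163 at one of its starts (0.59, 0.28 to 0.91) and 28 and 28 at the other (0.41, -0.40 to 1.22). The ratio over all start windows was not computed, so how these values stand against starts in general was not tested. On either strand, AGGTCA is found in 14.0% of the 32851 RefSeq start windows of 250 upstream bases, so a match in Fam13a and Ucp1 is no rarity. The paired form AGGTCANAGGTCA, in which N is any base, is found in 0.0335% of them and each paired match counts as AGGTCA too. None of the 32 start windows that RefSeq gave for the leading genes, the markers and Ucp1 held the paired form, and windows for Acss3, Pde3b, Slc1a5 and Tmem45b were not analysed here.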

How the data were processed

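For the RNA libraries the authors deposited raw UMI counts per gene and barcode; per the file headers the matrices come from cellranger 7.2.0. Cell Ranger ARC 2.0.2, Seurat 5.1.0 and mm10 are named in the submitters' processing notes. How introns were treated, not given in the sources used here, could change nuclear counts. A deposited table holds the label, doublet class, UMI and gene counts and mitochondrial percent of each labelled nucleus. The chromatin fragments were deposited separately, with their read pair counts. The mitochondrial percent per the labels' table was recomputed from the matrix. The table of 6-month labels was used for its 317 complete rows. It breaks off inside the next row, so any nuclei listed after that point were not analysed. Of 365 labelled thymic nuclei 101 had a deposited UMI count equal to the matrix, and the largest difference was 33. All 365 were singlets by the authors' class, and no further doublet step was run.

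UMIs were summed per label over nuclear-encoded genes, leaving out 78 rows whose symbol occurs more than once, and given as CPM. For log2 ratios 0.5 UMI was added on either side, with exact binomial 95% intervals. Sums had exact Poisson and shares Clopper-Pearson intervals. A gene counted as measured where the mean of both CPMs gave 10 expected UMIs on the shallower side, and as higher or lower at a log2 ratio of 1. A bound against a sum of 0 used 3 counts for that label. Shares at 250 UMIs are hypergeometric expectations. The ratio and interval functions were tested on simulated data.

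Named genes were the Ad I markers and the identity and thermogenic genes with 5 UMIs in Ad I. To these came the 25 leading genes (20 UMIs in Ad I, ranked by the smallest of 4 lower bounds) and the 10 highest and 10 lowest per comparison by the bound nearest 0. Of every other list, the 3 highest and 2 lowest over Ad IIa with 10 UMIs were named. Further members and marker genes are named as called or as at 0. The members and the 30 lists were chosen with earlier results of these data known. Alternatives were 9 planned ones (TMM in edgeR 4.0.16, median of ratios, no minimum, a minimum of 20, a pseudocount of 5, equal weight per nucleus, nuclei with 500 UMIs, subtraction of the unlabelled profile, unlabelled barcodes under 10% mitochondrial) and 2 chosen after seeing the data (without the deepest nucleus of each Ad I label, and without the 3 Ad Ib nuclei with 3 or more endothelial markers).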

Additional observations from a re-analysis of the deposited data

Results flagged for a closer look

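Cfd, the gene of adipsin, lay on opposite sides of 0 in the libraries. Its log2 ratio of Ad I over Ad IIa was 3.15 (2.62 to 3.68) in the thymus, from 67 UMIs in Ad I and 58 in Ad IIa, and -0.48 (-0.61 to -0.36) in epigonadal fat, from 603 and 3946 UMIs. In CPM, Ad I was at 1283 in the thymus and 2285 in epigonadal fat, and Ad IIa at 144 and 3190. No test of this difference is possible with 1 library of each tissue. Of the 67 thymic UMIs, 25 lay in 1 nucleus.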

How the results depend on the processing

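Depth was limited by the shallower side of each comparison: 52241 nuclear-encoded UMIs of Ad I against Ad IIa, Ad IIc and the unlabelled barcodes, 27020 of Ad IIb and 24582 of Ad Ib. By TMM the counts were 492 lower than in Ad IIa, 157 higher than in Ad IIb and 384 lower than in the unlabelled barcodes, where the identity median was 0.86; by the median of ratios they were 466, 161 and 361, with 0.91, and 69 were higher in Ad Ia than in Ad Ib. With no minimum, higher and lower counts were 5392 and 1991 against Ad IIa, 2154 and 2386 against Ad IIb, 3533 and 3286 against Ad IIc, 13730 and 1769 against the unlabelled barcodes and 2363 and 2912 for Ad Ia over Ad Ib. These counts take in genes with few UMIs, and the 0.5 UMI added weighs more in the smaller total. A gene with 0 UMIs in Ad I and a few in a deeper group can thus count as higher. A larger pseudocount adds to that weight. With a minimum of 20 the counts were 71 and 139, 21 and 59, 84 and 141, 101 and 70, and 16 and 5. A pseudocount of 5 gave 107 lower than the unlabelled barcodes and 29 higher in Ad Ia. Equal weight per nucleus gave 392 higher than the unlabelled barcodes and 18 lower in Ad Ia. Nuclei with 500 UMIs gave 137 higher than Ad IIa, 161 higher than Ad IIc, 114 lower than the unlabelled barcodes, and 26 higher and 15 lower in Ad Ia. This limit was set for labelled nuclei only, and all unlabelled barcodes were kept. With the unlabelled barcodes under 10% mitochondrial, identity was at 3.92 and the thermogenic list at 4.27. Without the deepest nuclei 11 were lower in Ad Ia, and without the 3 Ad Ib nuclei 26 were higher and 17 lower. The other 157 of these values stayed within 1.5 times (counts) or within a 95% interval of the list's median, taken from its ranked members (medians). Among them, however, a pseudocount of 5 turned the majority against Ad IIa, to 252 higher and 227 lower. The intervals of the medians are wide: with a pseudocount of 5 the Ad IIb medians were 0.55 for identity and 0.86 for the thermogenic list, against 2.38 and 3.23. With 500 UMIs the identity median of Ad Ia over Ad Ib was 2.33 and the thermogenic median over the unlabelled barcodes 1.16. Of 1840 values of single genes 180 moved out of their counting interval and, of those at least 2-fold in size, 3 changed sign: Cox8b over Ad IIa to -0.017 by equal weight, Kcnk3 in Ad Ia over Ad Ib to 0.38 with 500 UMIs, and Itga1 to 0.50 without the 3 nuclei. Smaller ratios crossed 0 as well, such as Lpl in Ad Ia over Ad Ib from 0.32 to -0.0077 without the 3 nuclei. Fewer genes pass a stricter minimum; the other causes were not tested. No paired analysis was possible because each group is 1 library.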
